A study of Mus musculus with 30 samples.

Results

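Complex I of the respiratory chain is built from subunits encoded in the nucleus and in mitochondrial DNA, and 35 of its nuclear-encoded subunits were examined here in mouse heart. The members are a given list of gene symbols, and each was found by Ensembl ID on its own row of each deposited count table: 35 of 78258 rows in the postpartum study and 35 of 56691 rows in the diet study. By position in the enzyme, 10 belong to the N module, 5 to the Q module, 9 to the proximal and 10 to the distal membrane arm, and Ndufab1 sits in both membrane and matrix parts. The 6 catalytic core members, 3 in the N and 3 in the Q module, are Ndufv1, Ndufv2, Ndufs1, Ndufs3, Ndufs7 and Ndufs8, and the other 29 are accessory subunits.

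RNA of mouse hearts was measured by QuantSeq 3' mRNA sequencing, which reads the 3' end of polyadenylated transcripts. The postpartum study crossed 2 genotypes, wild type (WT) and S55L, with 2 states: naive animals kept until 100 days of age, and animals whose breeding began at 65 days and that were killed at 0 days postpartum (PP). The diet study used S55L animals at PP alone, which ate either a control or an EH301 diet during breeding. S55L is known as a point mutation of CHCHD10, a small protein of the mitochondrial intermembrane space, and EH301 is a mixture of pterostilbene and the NAD precursor nicotinamide riboside. The labels do not give the zygosity, the age of the PP animals at death or whether each library came from its own mouse, so p-values measure only the spread between these libraries.

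Complex I takes electrons from NADH in the mitochondrial matrix and passes them to ubiquinone, and it couples this transfer to the pumping of protons across the inner membrane. Its N module binds and oxidises NADH, its Q module carries the electrons over iron-sulfur clusters to the quinone site, and its membrane arm, built around the subunits encoded in mitochondrial DNA, moves the protons. Cardiomyocytes are densely packed with mitochondria and draw most of their ATP from the respiratory chain.

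Short stretches of promoter are shown because many members moved together, and they show which letters of well-known regulators lie near their start sites. Promoter windows from 250 bases before to 50 bases after the annotated start, from RefSeq on GRCm38.p6, were found for 32 of the 35 members, and both strands were searched for 4 motifs that do not overlap one another. The YY1 core AAGATGGC stood in 7 of 32 member windows (21.9%) against 3.19% of 27025 genes, and in each of the 7 it lay on the gene's strand, with its first letter 23 to 39 bases after the start. The NRF1 core GCATGCGC stood in 3 windows (9.38%, against 3.05% of genes), the ERR element TNAAGGTCA in 1 (3.12%, against 1.43%), and the ETS core CCGGAAGT in 1 (3.12%, against 4.31%). The 6 members with a match and the lowest adjusted p in naive hearts are printed 5′ to 3′ with the motif in capitals, and for Ndufs3 the capitals are the ETS core read on the opposite strand.
Ndufa3, chr7:3617384-3617413, plus strand: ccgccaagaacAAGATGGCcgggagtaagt
Ndufs6, chr13:73328433-73328462, minus strand: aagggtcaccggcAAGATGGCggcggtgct
Ndufa9, chr6:126849097-126849126, minus strand: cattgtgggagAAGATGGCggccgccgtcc
Ndufs3, chr2:90904703-90904732, minus strand: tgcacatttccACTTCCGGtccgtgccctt
Ndufs7, chr10:80249462-80249491, plus strand: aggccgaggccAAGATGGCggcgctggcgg
Ndufb8, chr19:44555393-44555422, minus strand: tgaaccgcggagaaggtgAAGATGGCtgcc
The printed matches did not follow a single module: Ndufs6 is an N module member, Ndufa9, Ndufs3 and Ndufs7 are Q module members, Ndufa3 is proximal and Ndufb8 distal. Of the members with a match that are not printed, Ndufs4 (YY1 core) passed the edgeR test in naive hearts. Ndufa6, Ndufa8 and Ndufa11 (NRF1 core), Ndufb4 (ERR element) and Ndufc1 (YY1 core) did not pass it. The YY1 core contains the letters ATG, so a match can also be a start of translation, and whether any factor binds there was not measured.

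Several features of the libraries bear on the values that follow. WT PP columns 1 and 2 were identical, as were S55L PP columns 1 and 2, and each pair was counted as 1 library (n = 4), while control diet column 5 equalled EH301 diet column 6 and both were dropped, leaving 4 libraries a diet. Gene-assigned reads ranged from 1418715 to 2949993 in the 9 WT and from 2755500 to 5131316 in the 9 S55L libraries of the postpartum study, and from 466651 to 3048461 in the diet study. In the postpartum study, multiply aligned reads were 24.7 to 27.3% of all reads counted in WT and 17.5 to 21.2% in S55L libraries, and the share on genes was 58.3 to 61.6% and 66.3 to 69.2%, so these measures too separated the genotypes. Levels are counts-per-million values (CPM), with each library's total scaled by trimmed means of M values (TMM). In the postpartum study, cardiomyocyte markers were lower in S55L naive hearts for 9 of 10 genes and summed to 42820 to 57570 CPM, against 72460 to 96310 in WT naive, with no marker at 0. Macrophage markers were higher for 11 of 12 (1758 to 2116 summed CPM against 344.6 to 423.5), fibroblast markers for 5 of 10, and atrial markers for 2 of 2 tested, while 4 of 8 endothelial, 6 of 7 smooth muscle and pericyte and 1 of 3 erythroid markers were lower. The remaining smooth muscle marker, Acta2, was higher (3.45 ± 0.46 on the log2 scale). With it, that list summed to 1498 to 3527 CPM in S55L naive against 615.5 to 750.9 in WT naive hearts. Over all 11945 genes tested, 2614 were called higher and 2578 lower in S55L naive hearts. In whole hearts, fewer cells of a type and less RNA per cell cannot be told apart, and the part of these shifts and of the read shares in the results on complex I was not tested. The column names hold codes of a letter and digits, which the labels do not explain and which were read as plate wells from their form. By these well codes, all 5 WT naive and 3 of 4 WT PP libraries stood in plate column 1 and all S55L libraries in columns 2 and 3. Genotype and plate column could thus be separated only through 1 WT PP library in column 2.

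In naive hearts, S55L libraries held less complex I subunit mRNA than WT libraries. Summed over the 35 members, the level was 16240 to 18600 CPM in the 5 S55L naive libraries and 24134 to 26880 CPM in the 5 WT naive libraries, with no overlap. By edgeR's quasi-likelihood test with Benjamini-Hochberg adjustment over all 11945 genes tested, 25 of the 35 members fell and none rose, and 21.6% of all genes tested were called lower. Every S55L library lay below every WT library for 23 members, against 15.4% of all genes tested. The median log2 fold change was -0.66 over the members and 0.00 over all genes. The fold changes ran from -1.82 for Ndufv1 to 0.25 for Ndufb4.

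**Figure D1:**
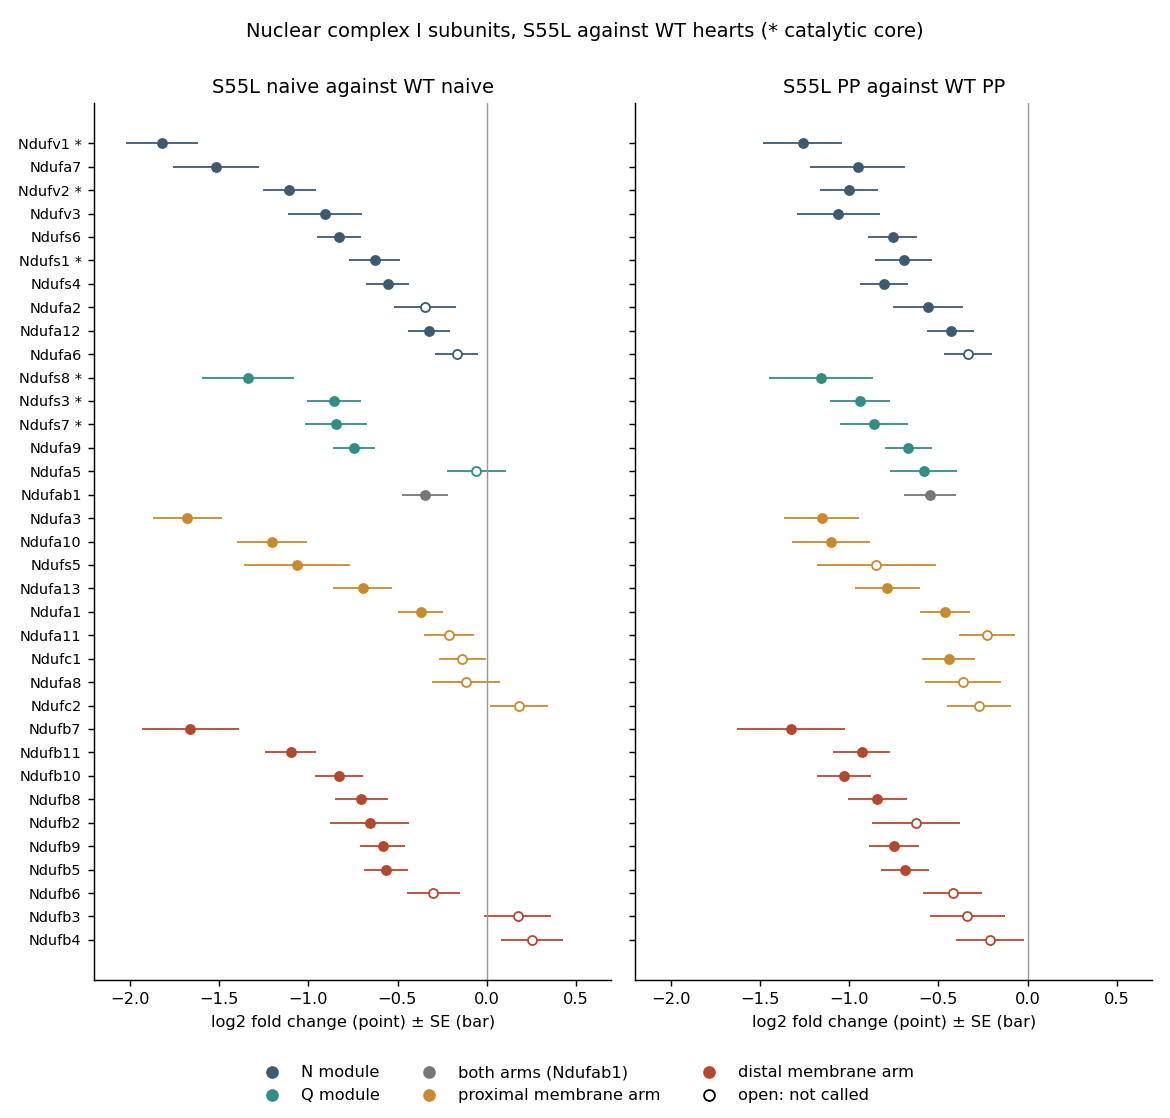
Log2 fold change (x axis, point) with its SE (bar) of each of the 35 members (y axis, grouped and coloured by module; asterisks mark the catalytic core), in naive hearts on the left and PP hearts on the right; open points were not called at an adjusted p of 0.05. In naive hearts 25 members and in PP hearts 26 lie to the left of 0 as filled points, and the points above 0 (Ndufb3, Ndufb4 and Ndufc2 in naive hearts) are open.

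The N module held the member with the lowest fold change of all. Ndufv1, which binds NADH and the flavin that first takes its electrons, measured 1192, 1009, 1069, 1041 and 1063 CPM in the WT naive libraries and 321, 335, 338, 291 and 235 CPM in the S55L naive libraries. Every S55L value was under every WT value by a wide gap, and the fitted level fell by 1.82 ± 0.20 (SE) on the log2 scale, or 3.53-fold (edgeR adjusted p = 8.2e-08). Ndufv2, the iron-sulfur subunit beside it, measured 808, 593, 538, 551 and 529 CPM in WT and 318, 285, 261, 297 and 241 CPM in S55L naive hearts. Its highest S55L value was well below its lowest WT value (log2 fold change -1.11 ± 0.15, edgeR adjusted p = 9.3e-07). Ndufs1, which carries most of the module's iron-sulfur clusters, measured 428, 387, 354, 346 and 317 CPM in WT and 201, 222, 195, 278 and 289 CPM in S55L naive hearts. The groups were apart but closer than for Ndufv1, and the level fell by 0.63 ± 0.14 (SE) on the log2 scale (edgeR adjusted p = 0.00092).

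The accessory members of the N module spread widely. Ndufa7 had a mean of 307 ± 45.7 CPM (SD, n = 5) in WT naive and 107 ± 25.8 CPM in S55L naive hearts, a log2 fold change of -1.52 ± 0.24 (SE). Ndufv3, a small subunit beside the core of the module, went from 1964 ± 529 to 1047 ± 134 CPM (-0.91 ± 0.21), with overlapping libraries. Ndufs6, a zinc-binding subunit, went from 1244 ± 149 to 702 ± 55.4 CPM (-0.83 ± 0.12), and Ndufs4, whose loss causes Leigh syndrome, from 280.2 ± 8.17 to 191 ± 20.7 CPM (-0.56 ± 0.12). All 4 were called, with edgeR adjusted p values from 4.9e-06 (Ndufs6) to 0.001 (Ndufv3). Ndufa12, at the foot of the module, was the called member with the highest fold change there: it measured 1159.5, 1396, 1364, 1521 and 1247 CPM in WT and 1039.5, 1058, 1009, 1163 and 1077 CPM in S55L naive hearts, where the lowest WT library lay among the S55L values (-0.32 ± 0.12, edgeR adjusted p = 0.028). Ndufa2 (852 and 669.8 CPM, -0.35 ± 0.17) and Ndufa6 (893 and 794 CPM, -0.17 ± 0.12), an LYR-motif protein that holds the acyl carrier protein, did not pass the test. In all, 8 of 10 members of the module fell, with a median log2 fold change of -0.73.

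In the Q module the 3 core members fell. Ndufs8, which carries iron-sulfur clusters on the way to the quinone, measured 173, 209, 205, 242 and 238 CPM in WT naive and 110.3, 94.3, 83.8, 83.9 and 49.3 CPM in S55L naive libraries. Its S55L values lay below all WT values, and it fell by 1.34 ± 0.26 (SE) on the log2 scale, or 2.53-fold (edgeR adjusted p = 0.00035). Ndufs7, which holds the last cluster before ubiquinone, measured 960.2, 1217, 1314, 1163 and 852 CPM in WT and 515, 481, 612, 696 and 761 CPM in S55L naive hearts, again without overlap (-0.85 ± 0.17, edgeR adjusted p = 0.00028). Ndufs3, among the first subunits of the module to assemble, measured 449.7, 432, 449, 424 and 398 CPM in WT and 211, 220.1, 242, 247 and 269 CPM in S55L naive hearts (-0.86 ± 0.15, edgeR adjusted p = 5.2e-05). The gap between the groups was wider than the range within either. Ndufa9, a nucleotide-binding accessory subunit, measured 442, 505, 481, 454 and 439 CPM in WT and 284, 239, 285, 306 and 272 CPM in S55L naive hearts (-0.74 ± 0.12, edgeR adjusted p = 1e-05), and its groups did not overlap. Ndufa5 was the exception: its means were 716 ± 134 and 689 ± 192 CPM (SD, n = 5) and its fold change -0.06 ± 0.17 (edgeR adjusted p = 0.8). The median over the 5 was -0.85, and -0.79 over 6 when Ndufa6 was placed here, which left -0.83 for the N module.

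**Figure D2:**
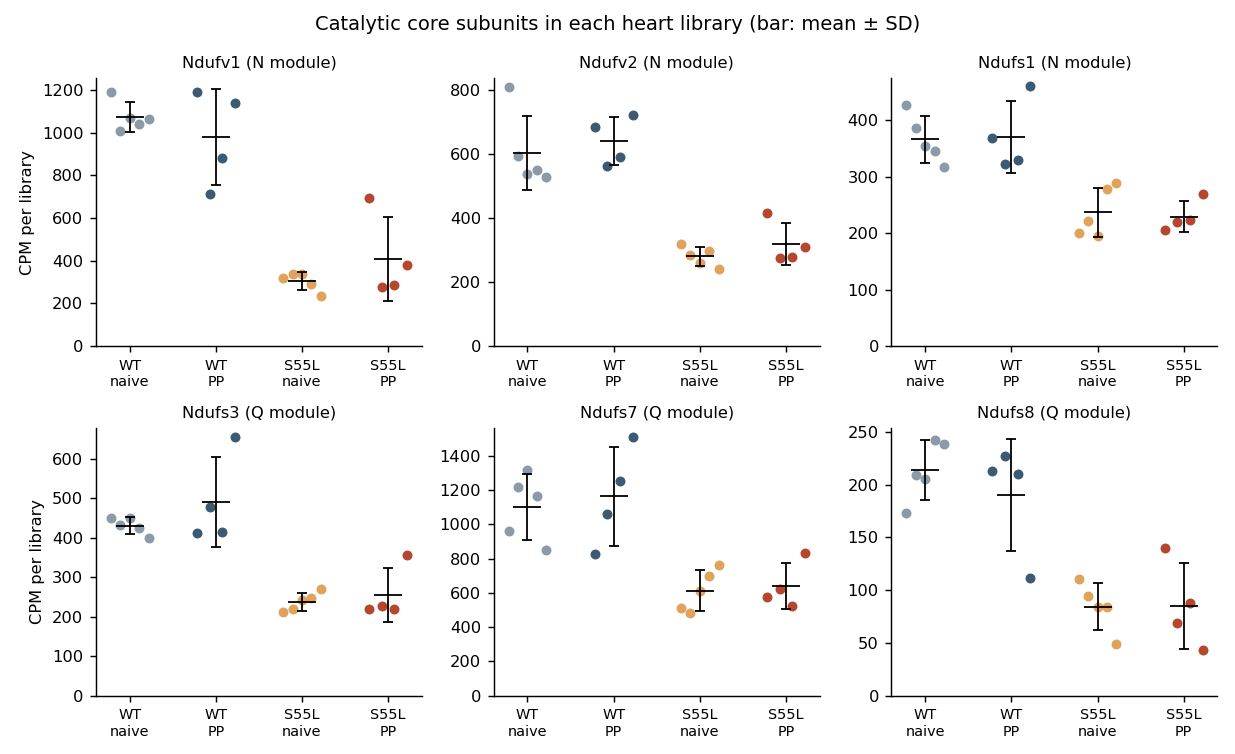
CPM (y axis, from 0) of the 6 catalytic core members in each library of the 4 groups of the postpartum study (x axis); points are libraries and the bar is the mean ± SD (n = 5, 4, 5 and 4). In naive hearts every S55L point of each core member lies below every WT point, while in PP hearts Ndufs7 and Ndufs8 overlap.

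The proximal membrane arm was divided: 5 of its 9 members fell and 4 were not called. Ndufa3, a single-pass subunit with no known catalytic role, measured 549, 455, 408, 419.9 and 444 CPM in WT naive and 149, 141, 164, 146 and 111 CPM in S55L naive libraries. No S55L value came near a WT value, and the level fell by 1.68 ± 0.19 (SE) on the log2 scale, or 3.20-fold (edgeR adjusted p = 1.2e-07). Ndufa10, which resembles nucleoside kinases, went from 1109 ± 82.5 to 481 ± 98.2 CPM (SD, n = 5, -1.21 ± 0.20), and Ndufs5, a cysteine-rich subunit facing the intermembrane space, from 37.2 ± 11.6 to 17.98 ± 5.61 CPM (-1.06 ± 0.30). Ndufa13, also known as GRIM-19, went from 888 ± 75.2 to 549 ± 104 CPM (-0.70 ± 0.16). Of the called members, Ndufa1 had the highest fold change: it measured 777, 685, 632, 741 and 613 CPM in WT and 512, 519, 442, 599 and 594 CPM in S55L naive hearts, groups that came close without overlap (-0.37 ± 0.13, edgeR adjusted p = 0.019). Not called were Ndufa11 (757 and 653 CPM, -0.21 ± 0.14), Ndufc1 (819 and 745 CPM, -0.14 ± 0.13), Ndufa8 (1069 and 986 CPM, -0.12 ± 0.19) and Ndufc2 (450 and 510 CPM, 0.18 ± 0.16). The median of the 9 was -0.37.

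In the distal membrane arm, 7 of 10 members fell, with a median of -0.62. Ndufb7, a cysteine-rich subunit on the intermembrane-space side, measured 386, 276, 302, 313 and 417 CPM in WT naive and 127, 127, 129.6, 91.8 and 59.3 CPM in S55L naive libraries, which were all lower. It fell by 1.66 ± 0.27 (SE) on the log2 scale, or 3.17-fold (edgeR adjusted p = 7.4e-05). Ndufb11 went from 549 ± 30.04 to 257 ± 24.4 CPM (SD, n = 5, -1.10 ± 0.14), Ndufb10, with disulfide bonds in the intermembrane space, from 500.4 ± 50.9 to 282 ± 45.4 CPM (-0.83 ± 0.13), and Ndufb8, often used as a marker of assembled complex I, from 776 ± 81.1 to 476 ± 86.9 CPM (-0.70 ± 0.15). Smaller changes were fitted for Ndufb2 (141 to 89.8 CPM, -0.66 ± 0.22) and for Ndufb9, an LYR-motif subunit that also holds the acyl carrier protein (1871 to 1249 CPM, -0.58 ± 0.13). Ndufb5 had the highest fold change among the called members: 1261, 1428, 1399, 1385 and 1525 CPM in WT and 886, 888, 863, 1089 and 1005 CPM in S55L naive hearts, without overlap (-0.57 ± 0.12, edgeR adjusted p = 0.00049). Ndufb6 (310.5 and 252 CPM, -0.30 ± 0.15), Ndufb3 (618 and 697 CPM, 0.17 ± 0.19) and Ndufb4 (498 and 593 CPM, 0.25 ± 0.17) did not pass the test.

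Ndufab1, the mitochondrial acyl carrier protein, is bound in both the matrix and the membrane part of the enzyme. It measured 529, 563, 532, 539.8 and 587 CPM in WT naive and 367, 447, 456, 467 and 429.8 CPM in S55L naive libraries. The groups did not overlap, and the level fell by 0.35 ± 0.13 (SE) on the log2 scale (edgeR adjusted p = 0.032).

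Scaling to total counts, in place of TMM, put the median log2 fold change of all genes at 0.244 in naive hearts, from 0.00, and turned the split of all called genes from 2614 higher and 2578 lower into 4013 higher and 1481 lower. Under it 21 members were called lower and 3 higher (Ndufb3, Ndufb4 and Ndufc2), against 25 and 0 with TMM. Ndufa1, Ndufa12, Ndufab1 and Ndufb2 lost their call, and the uncalled Ndufa5, Ndufa6, Ndufa8, Ndufa11 and Ndufc1 changed sign. The members' median was then -0.41, against 0.244 for all genes. Single libraries decided some calls near the threshold. Ndufa12 lost its call without WT naive library 2 or 4 or S55L naive library 1, 2 or 3 (edgeR adjusted p from 0.051 to 0.081), Ndufab1 without WT naive library 2 or 5 or S55L naive library 1 or 5 (0.053 to 0.09), Ndufb2 without WT naive library 1 or S55L naive library 1 or 2 (0.052 to 0.057), and Ndufa1 without S55L naive library 3 (0.054). Ndufa2 gained one without S55L naive library 3 (-0.54).

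By class, all 6 core members fell in naive hearts (median log2 fold change -0.98), and 19 of 29 accessory members fell (median -0.57). Within each library the mean log2 CPM of the core minus that of the accessory members ran from -0.31 to -0.04 in WT naive and from -0.82 to -0.62 in S55L naive hearts. The core thus stood lower against the accessory members in every S55L naive library than in any WT naive library. The mean of the N module minus that of the distal arm ran from 0.38 to 0.46 in WT naive and from 0.14 to 0.28 in S55L naive hearts, also without overlap. In PP hearts this difference did overlap, from 0.28 to 0.43 in WT PP and from 0.18 to 0.49 in S55L PP libraries. In the matrix arm (N and Q modules) 12 of 15 members fell and in the membrane arm 12 of 19. Across the 35 members, the fold change and the GC content of the transcript had a Spearman rho of -0.32, against -0.09 over the 10752 of 11945 genes with a transcript, and rho with transcript length was -0.07, both given as descriptions over genes that share the same libraries.

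**Figure D3:**
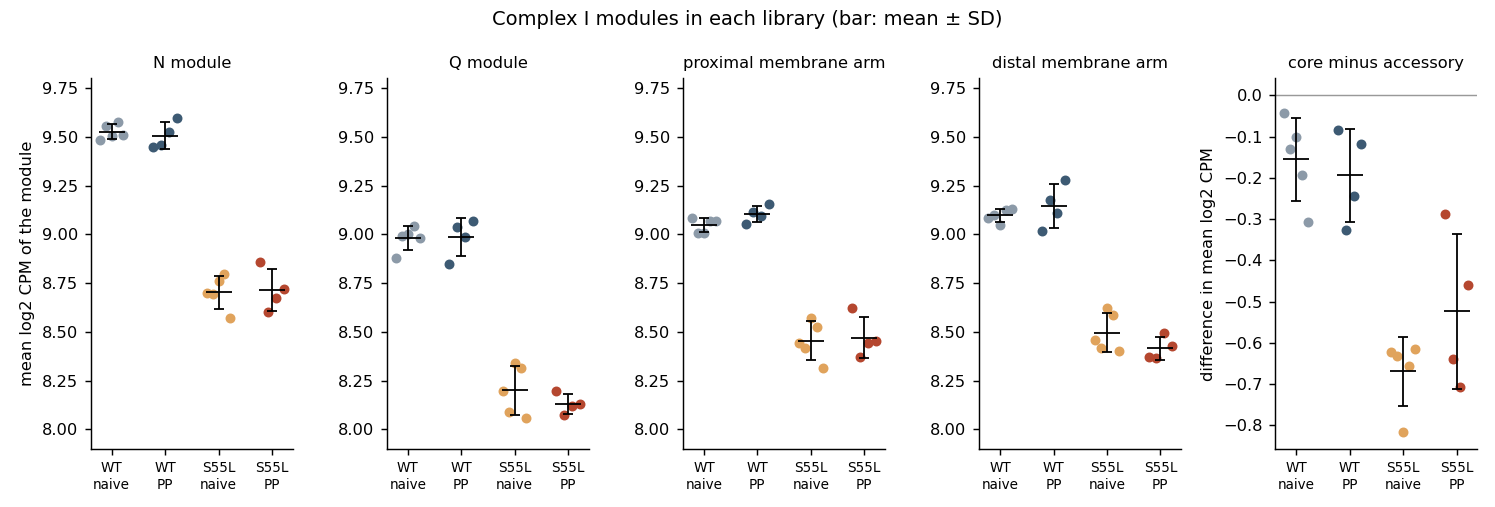
Mean log2 CPM of the N, Q, proximal and distal modules in each library (the first 4 panels, on 1 scale that does not start at 0), and the mean log2 CPM of the core minus that of the accessory members (right panel); points are libraries and bars are the mean ± SD of the group (n = 5, 4, 5 and 4). Each module's S55L points lie below its WT points in naive and in PP hearts, while core minus accessory overlaps in PP hearts through 1 S55L PP library at -0.29.

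With the plate column as a term in the fit, 10 members were called lower and 2 higher in naive hearts, in place of 25 and 0. Over all 11945 genes tested, that fit called 1487 lower and 1386 higher, in place of 2578 and 2614. Members called lower were Ndufv1 (-2.21, edgeR adjusted p = 0.00054), Ndufv2, Ndufa7, Ndufs8, Ndufa9, Ndufa3, Ndufa10, Ndufs5, Ndufb7 and Ndufb11. Ndufb4 (0.91, adjusted p = 0.049) and Ndufc2 (0.96, adjusted p = 0.023) were called higher. The members' median moved to -0.34, and Ndufab1 changed sign (0.15, adjusted p = 0.70), as did 6 uncalled members (Ndufa2, Ndufa5, Ndufa6, Ndufa8, Ndufa11 and Ndufc1). This fit rests on 1 WT PP library (library 1) in plate column 2, where 5 S55L naive libraries and 1 S55L PP library (library 5) stood. In that column alone, the WT PP library was above all 6 S55L libraries for 20 of 35 members, among them Ndufv1 (1190 CPM against at most 381.6) and Ndufa3 (510.3 against at most 164.3), and above the S55L PP library for 28 of 35. The share of all genes with such an order of libraries was not counted, and 1 library in a group allows no test within the column. WT PP library 1 had the lowest Ndufc2 of its group (342.4 CPM against 565.9 to 603.4) and the lowest Ndufb4 (406.6 CPM). S55L PP library 5 had the highest Ndufa13 of its group (805.3 CPM against 508.7 to 556.8). The part of these values in the fit was not tested.

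**Figure D4:**
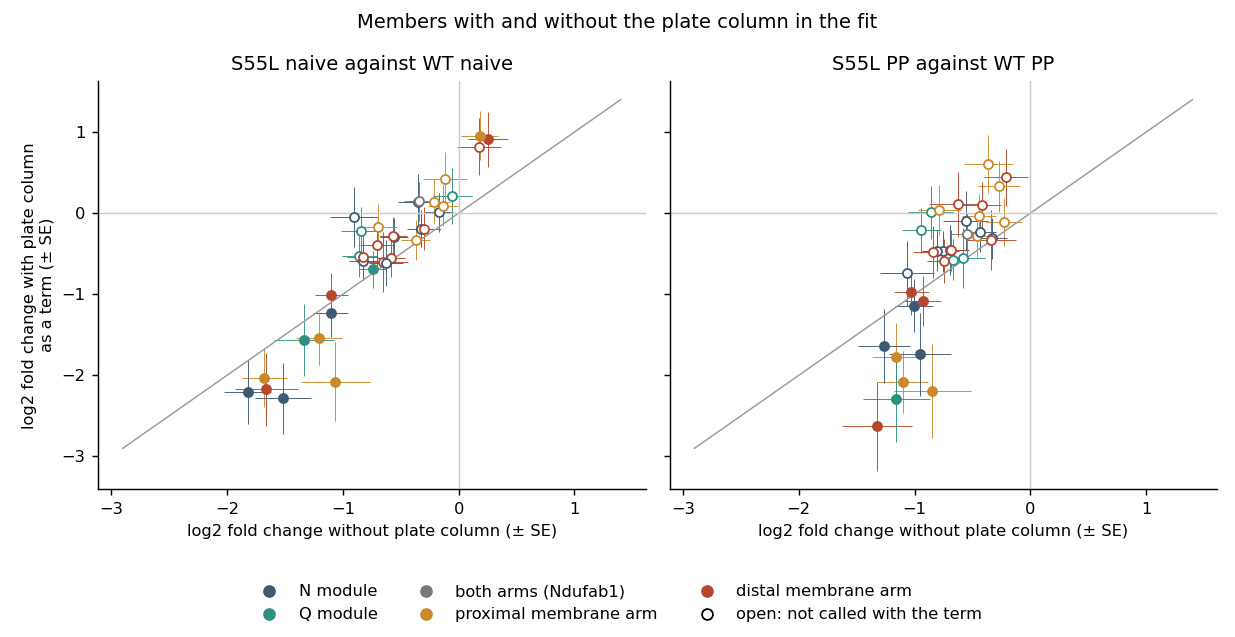
Log2 fold change of each member without the plate column in the fit (x axis) and with it (y axis), with SE bars, in naive hearts on the left and PP hearts on the right; colours give the module, the diagonal marks equal values and open points were not called with the term. Filled points below 0 number 10 in each panel, and 2 filled points stand above 0 in naive hearts (Ndufb4 and Ndufc2).

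In PP hearts the S55L libraries again held less of the members' mRNA: 15862 to 17312 summed CPM in the 4 S55L PP and 23470 to 28887 in the 4 WT PP libraries. Cardiomyocyte markers summed to 36950 to 47460 CPM in S55L PP and 73540 to 94310 in WT PP hearts, and macrophage markers to 1554 to 2711 and 473 to 595.1, and their part was not tested here either. In edgeR's quasi-likelihood test 26 of 35 members fell and none rose, where 15.2% of all genes tested were called lower. All S55L PP libraries lay below all WT PP libraries for 20 members (11.7% of all genes tested). The median log2 fold change was -0.75 over the members and 0.00 over all genes, and the members ran from -1.33 (Ndufb7) to -0.21 (Ndufb4). By module, 9 of 10 fell in the N module (median -0.78), 5 of 5 in the Q module (-0.86), 5 of 9 in the proximal (-0.46) and 6 of 10 in the distal arm (-0.72), and Ndufab1 fell by 0.55. All 6 core members (median -0.97) and 20 of 29 accessory members (-0.67) fell.

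The lowest adjusted p in PP hearts belonged to Ndufb10, which measured 471, 591, 522 and 618 CPM in WT PP and 293, 268, 278 and 239 CPM in S55L PP libraries, without overlap (-1.03 ± 0.15, edgeR adjusted p = 5.6e-06). Ndufv1 measured 1189.7, 711, 881 and 1138 CPM in the WT PP and 695, 275, 284 and 382 CPM in the S55L PP libraries. One S55L value came close to the lowest WT value, and the fold change was -1.26 ± 0.22 (SE; edgeR adjusted p = 8.9e-05). Ndufv2 measured 685, 564, 592.49 and 721 CPM in WT and 414, 276, 278 and 310.52 CPM in S55L PP hearts (-1.003 ± 0.16), and Ndufs1 368, 323, 330.4 and 461 CPM in WT and 205, 219, 223 and 269 CPM in S55L PP hearts (-0.70 ± 0.16). Neither gene's groups overlapped. Ndufs3 measured 412, 477, 415 and 654 CPM in WT and 218, 228, 218 and 356 CPM in S55L PP hearts (-0.94 ± 0.17), again apart. Ndufs7 and Ndufs8 did overlap. Ndufs7 measured 829.5, 1060.1, 1251 and 1509 CPM in WT and 576.02, 625, 524 and 834 CPM in S55L PP hearts (-0.86 ± 0.19, edgeR adjusted p = 0.001). For Ndufs8 the WT PP libraries gave 213, 227, 209.6 and 112 CPM and the S55L PP libraries 139.7, 69.0, 87.8 and 43.3 CPM (-1.16 ± 0.29, edgeR adjusted p = 0.0043), where 1 low WT library fell under the highest S55L one.

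Of the accessory members in PP hearts, Ndufs4 (-0.81 ± 0.13), Ndufb11 (-0.93 ± 0.16), Ndufs6 (-0.76 ± 0.14), Ndufa3 (-1.16 ± 0.21), Ndufb9 (-0.75 ± 0.14) and Ndufa9 (-0.67 ± 0.13) had the next lowest adjusted p values, from 3.5e-05 (Ndufs4) to 0.00024 (Ndufa9). Calls matched naive hearts for 23 members, and 7 were called in neither comparison: Ndufa6, Ndufa8, Ndufa11, Ndufc2, Ndufb3, Ndufb4 and Ndufb6. Ndufb2 and Ndufs5 were called in naive hearts alone, and Ndufa2, Ndufa5 and Ndufc1 in PP hearts alone, but no member passed the test of the difference between the 2 comparisons, given with the interaction. The 2 genotype comparisons share no library, and the members' fold changes in them had a Spearman rho of 0.945 (n = 35), given as a description over genes.

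Libraries of WT PP and S55L PP that bear the same number deviated together (correlation r from 0.119 to 0.333), most for numbers 1 and 5, which also shared a plate row. Libraries of different numbers were not compared. With the number as a replicate block over all 18 libraries, 30 members were called lower in PP hearts, as were 2018 of all 11945 genes tested. Ndufa6, Ndufb2, Ndufb6 and Ndufs5 were added (edgeR adjusted p = 0.042, 0.025, 0.029 and 0.011). Replicate number and plate row were not told apart. Total-count scaling, which put the median of all genes at 0.27, left 18 called lower and gave a split over all genes of 3458 higher and 977 lower, where TMM gave 1816 lower and about as many higher. With it, the uncalled Ndufa11, Ndufb4 and Ndufc2 changed sign. The plate column as a term gave 1038 genes lower and 1070 higher of all 11945 tested. Under this term 10 members were called lower, with a median of -0.46. They were Ndufv1, Ndufv2, Ndufa7, Ndufs8, Ndufa3, Ndufa10, Ndufb7, Ndufb10 and Ndufb11, called without the term too, and Ndufs5, which was gained. The term lost 17 calls. It changed the sign of 7 members, among them the called Ndufs7 (0.008, adjusted p = 0.99) and Ndufa13 (0.041, adjusted p = 0.95) and the uncalled Ndufa8, Ndufb2, Ndufb4, Ndufb6 and Ndufc2. Calls near the threshold again rested on single libraries. Ndufa2 lost its call without WT PP library 3 or 5 or S55L PP library 1 or 3, Ndufc1 without WT PP library 3 or S55L PP library 1 or 3, and Ndufa5 without WT PP library 3 or S55L PP library 5, with 24 to 28 members called in these fits.

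No member passed the test between PP and naive hearts in either genotype. Between WT PP and WT naive hearts 0 of 35 members were called (0.0167% of all genes tested were), and between S55L PP and S55L naive hearts 0 of 35 (0.0% of all genes tested). By unadjusted p under 0.05, edgeR gave 1 member (Ndufa8, 0.42 ± 0.20) and 756 genes in WT, and 3 members (Ndufa5, -0.51 ± 0.18, Ndufb3, -0.55 ± 0.20, and Ndufa3, 0.43 ± 0.20) and 747 genes in S55L. DESeq2 called 0 members in both, and 12 and 18 genes. The members' fold changes ran from -0.19 to 0.42 in WT (median 0.05) and from -0.55 to 0.47 in S55L hearts (median -0.02). For Ndufv1 they were -0.13 ± 0.21 (SE) in WT and 0.43 ± 0.21 in S55L, and for Ndufs8 -0.17 ± 0.27 and 0.01 ± 0.27. In the same order, the values were, for the other core members, Ndufv2 (0.09 ± 0.16 and 0.19 ± 0.15), Ndufs1 (0.02 ± 0.15 and -0.05 ± 0.15), Ndufs3 (0.19 ± 0.16 and 0.10 ± 0.16) and Ndufs7 (0.08 ± 0.18 and 0.06 ± 0.18). No member had groups without overlap in either comparison.

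The genotype by postpartum interaction tests whether the S55L difference itself differed between naive and PP hearts. It called 0 of 35 members (0.0% of all genes tested), with 1 member and 444 genes at an unadjusted p under 0.05, and 0 members and 1 gene by DESeq2. That member was Ndufa5, whose libraries gave 693, 607, 601, 754 and 927 CPM in naive WT, 628, 800.5, 689 and 776 in PP WT, 626, 616, 994, 728 and 479.7 in naive S55L and 401, 504, 597.76 and 428 in PP S55L hearts. All 4 S55L PP values lay below every WT value and overlapped S55L naive, with an interaction of -0.53 ± 0.25 (SE) and an edgeR adjusted p of 1. Over the core, the interaction was 0.56 ± 0.30 for Ndufv1, 0.18 ± 0.38 for Ndufs8, 0.10 ± 0.22 for Ndufv2, -0.07 ± 0.22 for Ndufs1, -0.09 ± 0.23 for Ndufs3 and -0.02 ± 0.26 for Ndufs7. A test that was not passed does not show that the genotype difference was equal in naive and PP hearts.

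The subunits encoded in mitochondrial DNA, which form the membrane core, were lower too: 6 of 6 tested fell in naive hearts (median -1.27) and 6 of 6 in PP hearts (median -1.33), while mt-Nd6 was too low to test. Their summed level was 58820 to 68730 CPM in S55L naive and 124000 to 149600 CPM in WT naive hearts. The lowest adjusted p values in naive hearts were those of mt-Nd3 (1139 ± 237 CPM in WT and 432 ± 57.6 CPM in S55L, -1.40 ± 0.15), mt-Nd2 (-2.10 ± 0.26), mt-Nd4l (-1.49 ± 0.22) and mt-Nd5 (-1.14 ± 0.18), from 2.6e-08 to 9.9e-06 by edgeR. In PP hearts they gave -1.52, -1.83, -1.44 and -1.23. With the mitochondrially encoded genes removed before scaling, the nuclear members called stayed at 25 in naive and 26 in PP hearts.

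Assembly factors help to build complex I but are not part of the finished enzyme. Of 18 listed, 16 were tested, and 4 fell and 1 rose in naive hearts (median -0.20), a share lower that is near the 21.6% of all genes tested. Ecsit, of the membrane-arm assembly complex, went from 27.3 ± 6.51 to 15.3 ± 2.39 CPM (SD, n = 5, -0.84 ± 0.18, edgeR adjusted p = 0.00057). Ndufaf8 (-0.78 ± 0.23), Ndufaf1 (-0.57 ± 0.18), which works with Ecsit, and Dmac2 (-0.62 ± 0.20) also fell, and Timmdc1 rose (0.48 ± 0.19, edgeR adjusted p = 0.038; named after its value was seen). In PP hearts 5 fell and none rose (15.2% of all genes tested were called lower), with the lowest adjusted p for Ecsit (-0.76 ± 0.21), Ndufaf1 (-0.70 ± 0.20), Ndufaf8 (-0.84 ± 0.26) and Ndufaf4 (-0.43 ± 0.15).

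Among 42 nuclear subunits of complexes II to V, 28 fell and 3 rose in naive hearts (median -0.50), and 34 fell and 2 rose in PP hearts (median -0.66). By complex, the naive medians were -0.37 for complex II (2 of 4 fell), -0.60 for III (7 of 9), -0.37 for IV (7 fell and 2 rose of 14) and -0.66 for V (12 fell and 1 rose of 15). The complex I members' medians (-0.66 and -0.75) stood beside these, and no test compared the lists. Cardiomyocyte markers had medians of -1.10 and -1.14. Of 11 regulators of mitochondrial genes, 4 fell in naive hearts: Ppara (-1.92 ± 0.31), Esrra (from 100.4 ± 14.3 to 50.3 ± 8.94 CPM), Ppargc1b (-0.63 ± 0.15) and Ppargc1a (-0.60 ± 0.15). In PP hearts 5 fell, among them Ppargc1a (-1.06 ± 0.17) and Esrrg (-0.83 ± 0.26), while Yy1 (-0.18 and 0.00), Nrf1 (-0.30 and -0.27) and Gabpa (0.07 and -0.19) were not called in either. Mitochondrial ribosomal proteins fell for 32 and rose for 6 of 79 in naive hearts (median -0.23), and fell for 22 and rose for 3 in PP hearts (-0.32). Of 8 other enzymes that feed or use NADH or quinone, 5 fell in naive and 4 in PP hearts, with Etfb, a subunit of the electron transfer flavoprotein, at -1.003 ± 0.15 and -1.06 ± 0.16.

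In S55L PP hearts no member passed the test between the EH301 and the control diet. Of 32 members tested in edgeR's quasi-likelihood fit 0 were called, as were 0.0% of the 10335 genes tested. At an unadjusted p under 0.05 there were 0 members and 137 genes, and DESeq2 called 0 of each. The fold changes of EH301 against control diet ran from -0.47 (Ndufs3) to 0.60 (Ndufb7), with a median of -0.12 over the members and 0.02 over all genes. Module medians were -0.10 for the N module, -0.12 for Q, -0.13 for the proximal and -0.12 for the distal arm.

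Ndufv1 measured 2531, 889, 667 and 797 CPM in the control diet libraries and 665, 1634, 669.7 and 1008 CPM in the EH301 diet libraries (-0.29 ± 0.46, SE). The highest value in each group came from the library with the fewest reads. Ndufv2 measured 84.5, 189, 168 and 162 CPM on control and 180.2, 91.5, 215 and 132 CPM on EH301 diet (0.03 ± 0.32), and here the same 2 libraries were the lowest. Ndufs1 measured 158, 315.96, 257 and 243 CPM on control and 207, 210.2, 237 and 263 CPM on EH301 diet (-0.09 ± 0.27), with the groups interleaved. Ndufs3 gave 258, 71.0, 46.2 and 99.4 CPM on control and 55.007, 136, 59.6 and 81.6 CPM on EH301 diet (-0.47 ± 0.48), and Ndufs7 454, 570.0, 439 and 521 CPM on control and 310.0, 687, 442 and 392 CPM on EH301 diet (-0.12 ± 0.30). For Ndufs8 the values were 189, 357, 295 and 366 CPM on control and 249, 339.6, 332 and 279 CPM on EH301 diet (-0.02 ± 0.28). The diet groups overlapped for each core member. Ndufb7, with the highest fold change, measured 238, 102, 81.5 and 150.02 CPM on control and 162, 215, 246 and 227 CPM on EH301 diet (0.60 ± 0.33, edgeR adjusted p = 1), where only the library with the fewest reads kept the groups from being apart.

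**Figure D5:**
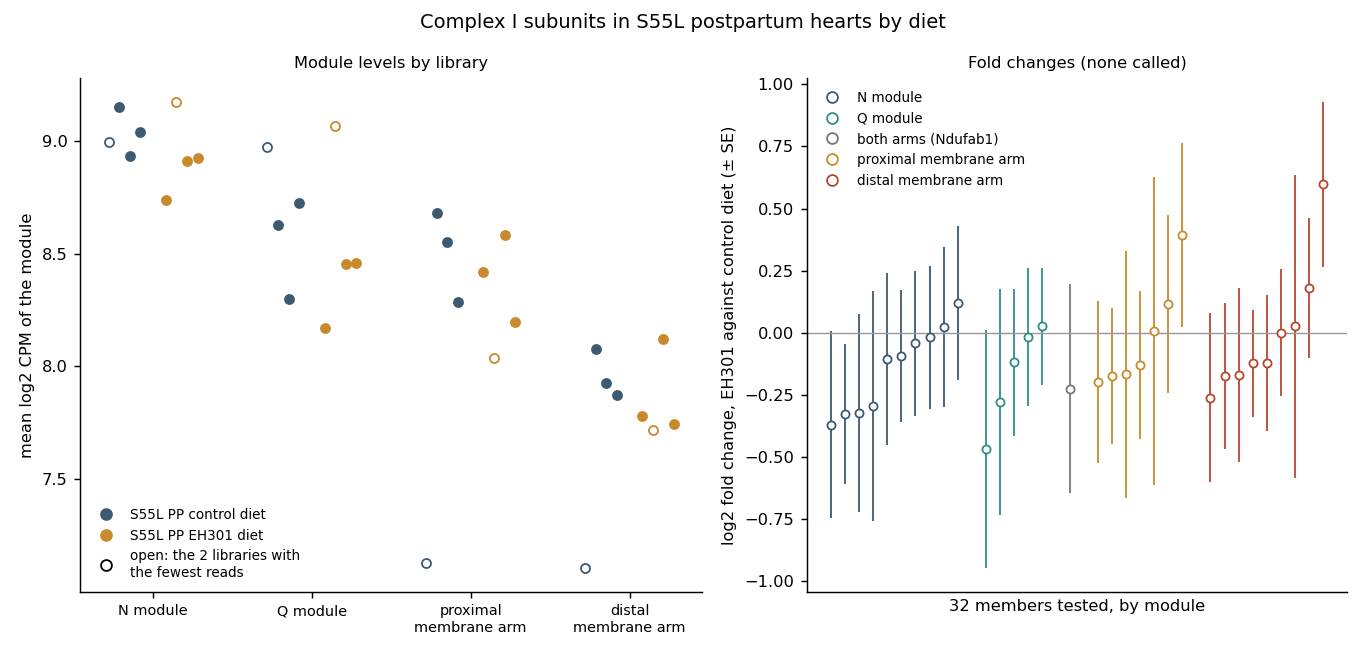
Left, mean log2 CPM of each module's tested members (y axis) in each of the 8 diet-study libraries, grouped by module and diet (x axis), with the library of fewest reads in each diet drawn open; right, log2 fold change of EH301 against control diet with its SE for the 32 members tested, coloured by module. The diets overlap in every module, the open control diet point is at 7.13 in the proximal and 7.10 in the distal arm, and no fold change was called.

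Those 2 libraries stood apart in the balance of the modules. The N module minus the distal arm was 1.89 in control diet library 1 (466651 reads on genes) and 1.45 in EH301 diet library 8 (1141997 reads), and 0.79 to 1.18 in the other 6. Without both, 0 members were called and the median was -0.17. The relation of their depth to this balance was not tested.

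The other 3 members could not be tested for diet because the diet table held few or no reads for them. Ndufa13 had 0 reads in all 8 libraries, which allows at most 0.162 CPM over the 8 (3 counts; counting error only). Ndufb8 was between 0 and 0.745 CPM and Ndufs5 between 0.665 and 2.92 CPM. In the postpartum table the S55L PP libraries held 509 to 805, 416 to 508 and 11.9 to 31.6 CPM of them. The 2 tables list different numbers of genes and were made separately, so levels were not compared between them, and the cause of these near-zero rows was not tested.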

How the data were processed

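Poly(A) RNA of mouse hearts was profiled with QuantSeq 3' mRNA libraries. The deposited tables hold raw read counts per gene, made by the authors; the submitters' processing notes name Trimmomatic 0.39, STAR 2.7.0f, HTSeq 0.6.1, DESeq2 3.21 and GRCm39.p6, while the annotation release and strand setting are not given in the sources used here. Symbols came from a GENCODE table by Ensembl ID. The 2 tables were fitted separately in R 4.3.3 with edgeR 4.0.16 (18 and 8 libraries, with limma 3.58.1 loaded): genes kept by filterByExpr (11945 and 10335), TMM scaling, glmQLFit and glmQLFTest over all groups of a table, and Benjamini-Hochberg adjustment over all genes tested, with a threshold of 0.05. A TMM-scaled log2 level used a prior count of 2. Fold changes are edgeR's, ± SE. The edgeR fit was run on counts simulated with known fold changes, a constant spread in each study and no plate or replicate effects. The other steps were not tried on simulated data.

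The total count per library limits precision. It was 1418715 to 5131316 in the postpartum study, and the diet libraries held 466651 to 3048461. The common biological coefficient of variation was 0.199 and 0.299. Counts are of reads, not of molecules, so the limit given for a count of 0 covers counting error only. Without stated strand or read assignment, genes that overlap others or have close copies carry more uncertainty.

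The members and lists were chosen with earlier results of these data known. Every member is named with its naive fold change; values per library are given for the 6 core members, Ndufab1 and each module's called members with the lowest and highest fold change, and in other comparisons for the core; of the members called there, the 10 with the lowest adjusted p are named, and up to 4 assembly factors and mitochondrially encoded subunits. Ndufa5, Ndufa8, Ndufb3, Ndufa3 and Ndufb7 in the comparisons with no call, and the regulators, were named after their values were seen. Other lists were complexes II to V, regulators, other NADH and quinone routes, mitochondrial ribosomal proteins and markers of cardiomyocytes, macrophages, fibroblasts, endothelium, smooth muscle and pericytes, atrium and erythroid cells.

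Groups share replicate numbers. WT PP and S55L PP libraries of the same number deviated together (r from 0.119 to 0.333 over 4 pairs). A replicate block was therefore also fitted, over all 18 libraries. The highest r values were those of libraries 1 (0.326) and 5 (0.333), which stood in plate rows A and H in both groups. Replicate number and plate row were not told apart. In every other pair of groups at least 1 correlation was at or below 0.1, and libraries of different numbers were not compared. Alternatives were DESeq2 1.42.0 and its size factors, total counts, no filter, no mitochondrially encoded genes, all deposited columns, the replicate block, plate column, the compared groups alone and each library left out. Plate row, and leaving out rows A and H, were chosen after seeing the data.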

Additional observations from a re-analysis of the deposited data

Results flagged for a closer look

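Single libraries stood far from the rest of their group, by the gap to the nearest library over the group's range, for 16 of 204 pairs of a member and a group. Chance gives about 1 in 20 groups. All values are CPM.

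In S55L PP library 1, Ndufa3 was at 334.5 (140.7 to 149.6 in the other 3), Ndufa7 at 257.1 (100.4 to 124.4) and Ndufb11 at 368.6 (234.8 to 251.2), each nearer to WT, while Ndufb4 was low at 295.4 (553.1 to 600.2). In S55L PP library 5, Ndufa8 was at 1627 (877.9 to 976.7), Ndufa13 at 805.3 (508.7 to 556.8) and Ndufs3 at 356.0 (218.3 to 227.8). WT PP library 5 was high for Ndufa8 at 2248 (1069 to 1232) and Ndufb6 at 459.7 (343.1 to 356.2), and low for Ndufs8 at 111.5 (209.6 to 227.2). WT PP library 1 was low for Ndufc2 at 342.4 (565.9 to 603.4). In WT naive library 1, Ndufv2 was at 808.2 (529.4 to 592.7) and Ndufa7 at 387.4 (275.9 to 302.1). Without the libraries of plate rows A and H, where these 13 values stood, 25 members were called in naive and 25 in PP hearts. That fit kept only 2 WT PP and 2 S55L PP libraries. In PP hearts Ndufa2 and Ndufa5 lost their call, Ndufb6 gained one, and the uncalled Ndufb4 changed sign. The counts of library 1 in both PP groups were also deposited under a column of row B, so their row is uncertain.

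In the diet study, control diet library 1, with the fewest reads, had Ndufv1 at 2531 (667.4 to 889.4) and Ndufb11 at 131.2 (383.7 to 426.2). EH301 diet library 8 had Ndufa5 at 4840 (1980 to 2398). No diet call depended on them, as 0 members were called with and without these 2 libraries.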

How the results depend on the processing

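With the plate column as a term, members called went from 25 to 12 in naive hearts (10 lower and 2 higher) and from 26 to 10 in PP hearts. Of the called members, that term turned Ndufab1 in naive hearts to 0.149 (adjusted p = 0.70), and Ndufs7 and Ndufa13 in PP hearts to 0.008 (0.99) and 0.041 (0.95), and it changed the sign of 6 uncalled members in naive and 5 in PP hearts. It leaves 1 WT library, WT PP library 1, to separate genotype from column, and the cause was not tested. The counts called stayed within 1.5 times under all other alternatives: in naive and PP hearts 25 and 26 with DESeq2's size factors, 24 (21 lower and 3 higher) and 18 with total counts, 22 and 25 without a filter, 25 and 28 with DESeq2's test, 25 and 30 with all deposited columns, 26 and 23 with only the compared groups, and 26 and 32 with plate row. Leaving out each library in turn gave 22 to 25 in naive and 24 to 28 in PP hearts. The replicate block gave 26 in naive and 30 in PP hearts. Between PP and naive hearts, for the interaction and for diet, 0 members were called in every alternative, and the diet median ran from -0.20 to -0.02. With 4 or 5 libraries a group and, for diet, a library of 466651 reads, small differences were not detectable.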
